A study of Macaca mulatta with 20 samples.

Results

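The interferon-induced genes, the interferon regulatory factor (IRF) genes and the signal transducer and activator of transcription (STAT) genes were followed in rhesus macaque corpora lutea exposed to a simulation of early pregnancy. The set held 46 genes of the 14132 with a named probe set on the array. It was chosen by gene symbol alone: symbols that begin with IFI and a digit, IFIH, IFIT, OAS, GBP, ISG, IRF, STAT or SAMD9, together with MX1, MX2, PARP9, PARP10, PARP12, PARP14 and XAF1. The rule uses no measured value, although it was written with earlier results of these data known, and each gene is shown by the probe set with the highest mean signal over the 20 arrays. By role there were 4 IFIT genes, 4 OAS genes, 12 further antiviral effectors, 4 PARP genes, 4 GBP genes with IFI30, 7 IRF genes and 5 STAT genes. The other 5 (IFI27L1, IFI27L2, IFITM10, IRF2BP1 and ISG20L2) entered by their names, as relatives or partners of members; they count among the 46 and are described last. The symbols IFITM1 and IFITM10 entered through the letters IFIT.

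The corpus luteum arises from the follicle after ovulation and secretes progesterone. Females were given rising doses of human chorionic gonadotropin (hCG), the hormone by which the early primate embryo sustains this gland, from luteal day 9. The injections went into muscle 2 times a day, in steps from 15 to 2880 IU. There were 5 groups of 4 arrays: untreated corpora lutea of luteal day 10, and hCG corpora lutea collected on luteal days 10, 12, 15 and 18, which is after 1, 3, 6 or 9 days with the hormone. Only the day 10 groups share a luteal day, so a later group differs from the untreated one in luteal day, days of hCG and dose together. The labels give no ages and do not state whether each of the 4 glands in a group had its own animal, so p-values here measure only the spread between these samples. Whole tissue was measured, so fewer cells of a type and less RNA per cell cannot be told apart.

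Interferons are secreted in response to viral nucleic acid, and type I and type II interferons bind separate receptors. Receptor-bound Janus kinases phosphorylate STAT proteins, which enter the nucleus and switch on antiviral genes, and IRF proteins act both in making interferon and in answering it. In ruminants the conceptus signals pregnancy with a type I interferon that raises such genes in the corpus luteum, whereas in primates chorionic gonadotropin takes that place. The gene roles given below are those known from human and mouse cells.

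Signals are intensity units from the array, with nearly the same trimmed mean on every array, and differences are on the log2(signal + 16) scale, hCG minus untreated unless another pair is named, with a standard error. A gene passed when limma's adjusted p, taken over all 52707 probe sets tested, was under 0.05. Median signals of the 20 arrays ran from 31.6 to 46.4, and 28.7% to 36.5% of probe sets per array were under 16. Of the members, 31 were over 100 on every array and 5 (GBP6, GBP7, IFITM10, IRF4 and STAT5A) were under 16 on at least 1 array, GBP7 on all 20. The 6 measured of 10 luteal steroidogenic markers were over 100 on every array. So were 10 of 13 macrophage and 8 of 11 endothelial markers, so this level alone does not mark a cell type. On principal component 3, 3 arrays lay apart from the other 17, namely replicate 2 of the untreated group, replicate 1 of hCG day 12 and replicate 2 of hCG day 15 (-54.8 to -50.2, against -4.8 to 23.6), a component with 8.4% of the variance. Where the call of a member or of a gene of another list was lost without these 3 arrays, its value without them is given.

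Across the 5 groups, 3 of the 46 members differed by the moderated F test: ISG20 (adjusted p = 0.00016), STAT6 (adjusted p = 0.03) and IRF5 (adjusted p = 0.048). Over all probe sets 4.52% passed that test, so the members passed at a share close to the background. At an unadjusted p under 0.05 the test picked 9 members (background 17.1%), the others being SAMD9L, IFI27L2, IRF8, IFITM10, IFI35 and IRF2. The pooled SD of single arrays within groups exceeded the SD of the 5 group means in 41 of 46 members. A group mean averages several arrays and so varies less than a single array, also where the groups do not differ. The count therefore does not show whether arrays or groups differed more, and no background share is given for it. The median within-group SD was 0.36 log2 units for the members and 0.26 for all named genes.

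**Figure D1:**
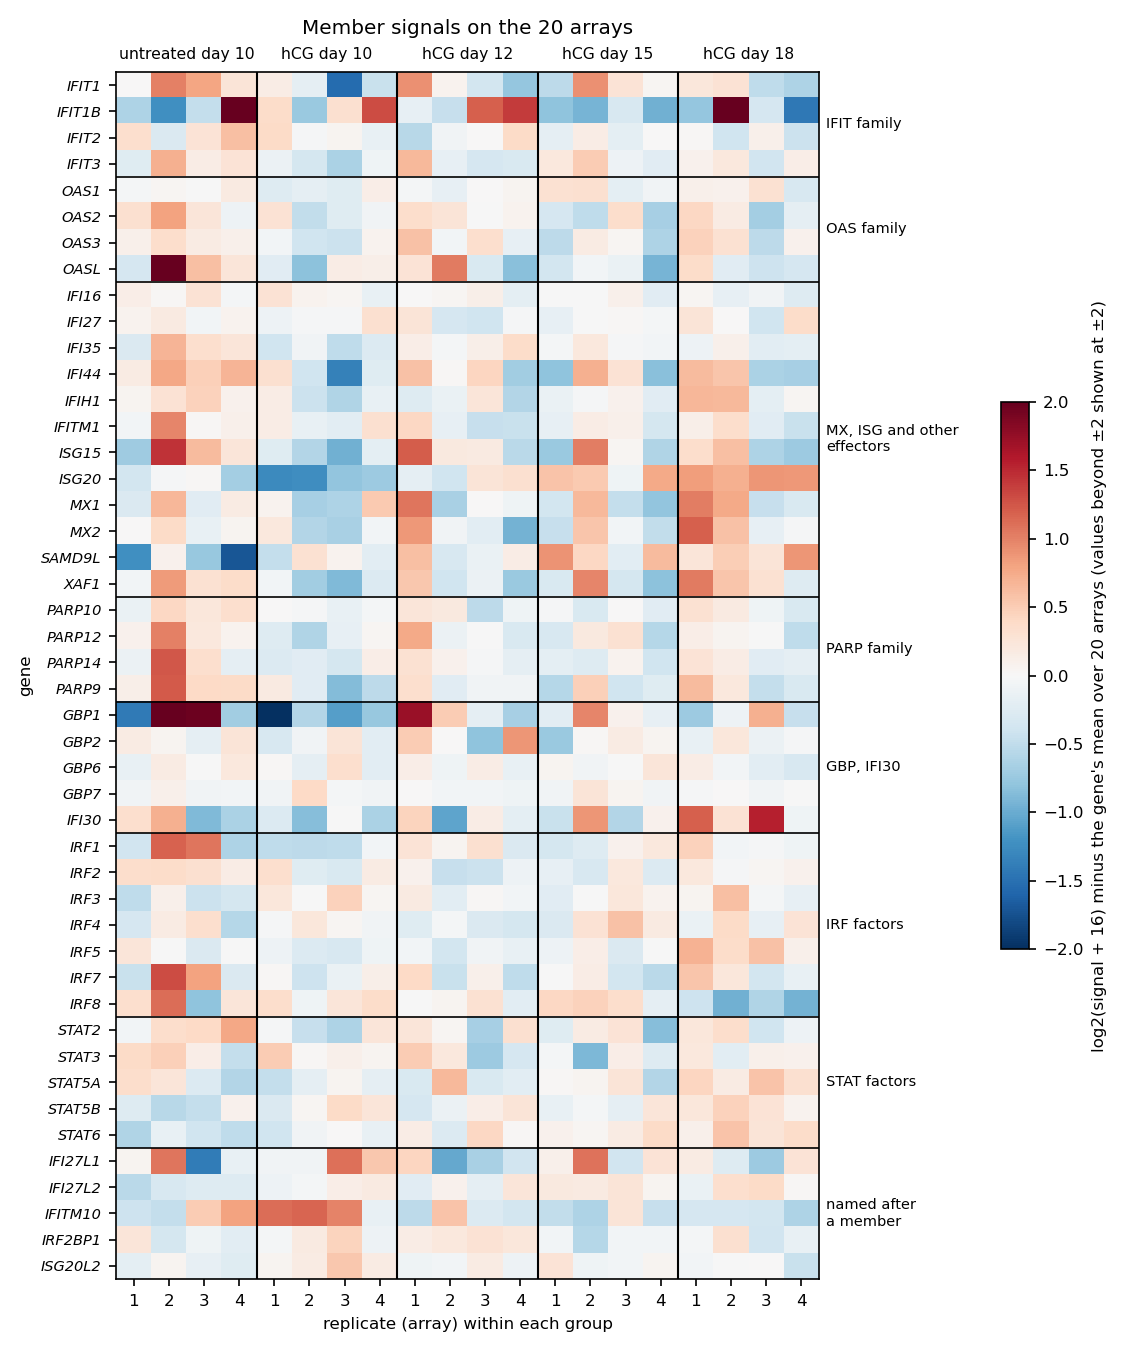
Each row is a member gene and each column an array, grouped by collection; colour gives log2(signal + 16) minus the gene's mean over the 20 arrays, with red above and blue below. Rows are ordered by role, and the rows of ISG20 and IRF5 are below their mean on all 4 arrays of hCG day 10 and above it on all 4 of day 18.

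Against the untreated group, 0 of 46 members passed on hCG day 10 (background 0.954%), 0 on day 12 (background 0.288%), 1 on day 15 (background 1.29%) and 4 on day 18 (background 3.9%), by limma. The gene on day 15 was SAMD9L, and those on day 18 were ISG20, STAT6, SAMD9L and IFI27L2. All of these calls were higher with hCG, where the background of calls for higher was 0.651%, 0.157%, 0.619% and 1.87% on the 4 days. No member passed as lower, against 0.304%, 0.131%, 0.674% and 2.02% of all probe sets. Without the 3 arrays apart on component 3, the counts were 0, 0, 1 and 3, and 3 by the F test; IFI27L2 was no longer called on day 18 (adjusted p = 0.094), nor was IRF5 by the F test (adjusted p = 0.071). At an unadjusted p under 0.05, 6 members were higher and 13 lower on day 10 (backgrounds 4.81% and 7.61%), 3 and 1 on day 12 (3.57% and 6.99%), 4 and 5 on day 15 (4.41% and 7.44%), and 7 and 2 on day 18 (6.96% and 8.63%). The count of 13 rested partly on a few arrays. Over the 20 fits that left out 1 array it ran from 3 to 17, and in 16 of them it stayed within 1.5 times 13. It was 3 without untreated replicate 2, 7 without untreated replicate 3, and 6 or 5 without replicate 2 or 3 of hCG day 10. It was 5 without the 3 arrays apart and 7 after each array was centred on its median. Few members separated the groups entirely. On days 10, 12, 15 and 18, 2, 1, 2 and 4 members had all 4 hCG arrays above all untreated arrays (backgrounds 3.42%, 2.14%, 2.64% and 4.79%), and 4, 1, 0 and 0 had all of them below (4.54%, 3.56%, 4.56% and 6.37%). Those below on day 10 were ISG20, OAS3, PARP12 and XAF1.

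Most members lay below 0 without passing. On hCG days 10, 12, 15 and 18, 33, 34, 32 and 29 of 46 were below 0, or 71.7%, 73.9%, 69.6% and 63.0%, against 58.3%, 60.4%, 59.9% and 55.2% of all probe sets. Their median differences were -0.23, -0.16, -0.25 and -0.10, against -0.05, -0.06, -0.05 and -0.03 for all probe sets. Centring each array on its median moved the all-probe-set medians to 0.07, 0.08, 0.06 and 0.02. The members' medians were then -0.12, -0.01, -0.14 and -0.05, with 29, 25, 29 and 25 below 0 (63.0%, 54.3%, 63.0% and 54.3%), against 39.5%, 36.4%, 40.4% and 46.8% of all probe sets. Without the 3 arrays apart, the members' medians were -0.17, -0.09, -0.15 and -0.03, and on day 18 the share below 0 was 52.2%, against 57.1% of all probe sets. Leaving aside the 5 genes that entered by name, 33, 32, 30 and 27 of 41 were below 0, and 0, 0, 1 and 3 passed. These 4 comparisons share the untreated arrays.

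**Figure D2:**
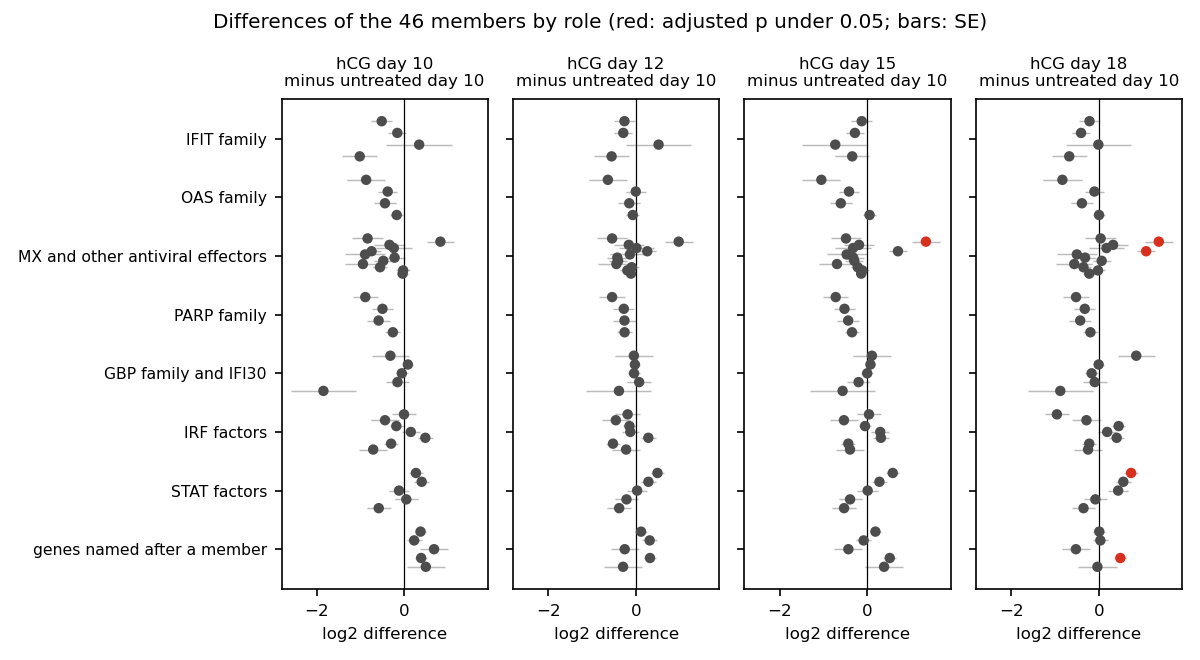
Each point is a member, placed by its log2 difference from untreated day 10 (horizontal axis, bars give the standard error) and by role (vertical axis), with 1 panel per hCG group; red marks an adjusted p under 0.05. The red points are SAMD9L on day 15 and SAMD9L, ISG20, STAT6 and IFI27L2 on day 18, while the points of the PARP row lie left of 0 in every panel.

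Single arrays stood out within their groups. The mean over the 46 members, as log2 distance from each gene's own mean, was highest of all in untreated replicate 2, at 0.49. The other untreated arrays were at -0.13, 0.09 and 0.02 (replicates 1, 3 and 4). On hCG day 10 the 4 arrays were at -0.07, -0.23, -0.18 and -0.03, and all were below 0. On day 12 they were at 0.27, -0.08, -0.06 and -0.14, on day 15 at -0.16, 0.17, 0.01 and -0.21, and on day 18 at 0.24, 0.24, -0.08 and -0.15. The group means were 0.12 ± 0.26, -0.13 ± 0.10, 0.00 ± 0.18, -0.05 ± 0.17 and 0.06 ± 0.21 in time order (SD, n = 4 each), so the ranges of the groups overlapped.

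The 3 arrays apart on component 3 were each the top array of their group on this mean. Untreated replicate 2 had the highest signal of its group for 30 of 46 members, against 21.1% of all probe sets. For hCG day 12 replicate 1 the count was 25 (34.1% of all probe sets), and for hCG day 15 replicate 2 it was 21 (27.1%). In untreated replicate 2, 10 members lay at least 1 log2 unit above the mean of the other 3 arrays of the group, and 6 and 7 did so in the arrays apart of day 12 and day 15. GBP1, IFI27L1 and IFI30 illustrate this. GBP1 was 3.15, 1.84 and 1.08 log2 units above the other arrays of the group in these 3 arrays, IFI27L1 1.56, 1.11 and 1.09, and IFI30 1.11, 0.82 and 1.20.

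**Figure D3:**
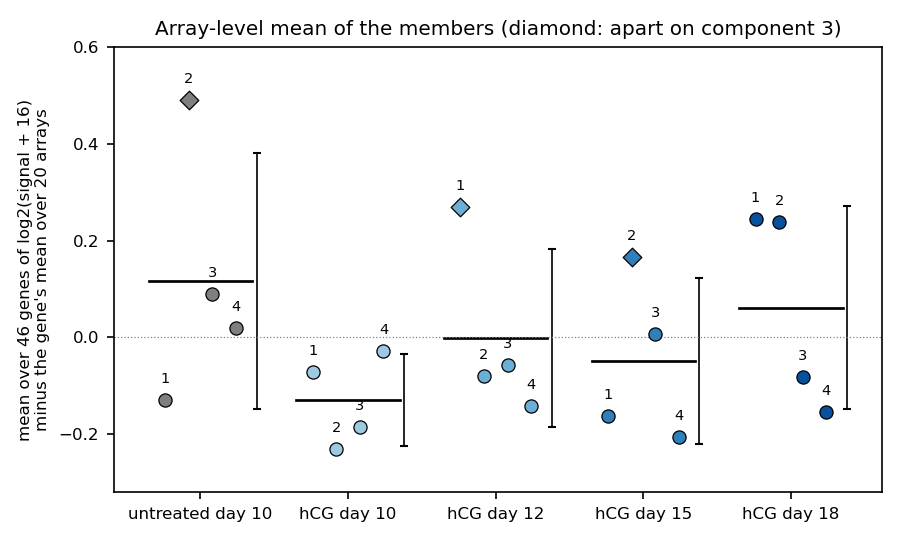
Points give, for each array, the mean over the 46 members of log2(signal + 16) minus the gene's mean over 20 arrays (vertical axis), by group (horizontal axis); digits are replicate numbers, lines the group mean and bars its SD. Diamonds mark the 3 arrays apart on component 3, each the highest of its group, from 0.17 to 0.49.

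The IFIT proteins bind viral RNA and hinder its translation. None of the 4 IFIT genes passed, and 3, 3, 4 and 4 lay below 0 on days 10, 12, 15 and 18. IFIT1 had signals of 832, 1681, 1445 and 993 in the untreated arrays, 917, 730.2, 275 and 602 on hCG day 10, 1574, 869, 640.5 and 477 on day 12, 568, 1565, 1006 and 848 on day 15 and 965, 1018, 574 and 532 on day 18. Untreated replicate 2 was the brightest array and hCG day 10 replicate 3 the dimmest, and the ranges of the groups overlapped. The difference on day 10 was -1.02 ± 0.39 (adjusted p = 0.27), and -0.67 ± 0.39 on day 18. IFIT3 was one of the brighter members, with 2129 to 3101 on hCG day 10 against 2793 to 5424 in untreated arrays (-0.52 ± 0.24, adjusted p = 0.38). IFIT2 differed by -0.16 ± 0.20 on day 10 on the probe set used. Its 5 other probe sets were below 0 too, with the lowest at -1.20 ± 0.36 (adjusted p = 0.14). Another was at -1.05 ± 0.29 (adjusted p = 0.1), with all 4 hCG day 10 arrays under all untreated arrays. The remaining ones were at -0.20 to -0.07. IFIT1B, an IFIT1 neighbour, was erratic: single arrays at 423 (untreated replicate 4) and 484 (hCG day 18 replicate 2) stood in groups whose other arrays were under 60.

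The OAS enzymes sense double-stranded RNA and make the short adenylates that activate the nuclease RNase L. None of OAS1, OAS2, OAS3 and OASL passed in any comparison. On days 10 and 12 all 4 were below 0, with medians of -0.41 and -0.11, and after median-centring 4 and 2 were. OAS3 was at 249, 192, 187 and 271 on hCG day 10, all under the untreated values of 278, 333, 289.9 and 278 (-0.38 ± 0.22, adjusted p = 0.51). OAS2 had signals of 665, 939, 630.3 and 494 in the untreated arrays, 653, 372, 447 and 503 on hCG day 10, 679, 634, 528 and 557 on day 12, 416, 367, 684 and 329.9 on day 15 and 712, 598, 325 and 468 on day 18. Its difference was -0.45 ± 0.25 on day 10 and -0.61 ± 0.25 on day 15 (adjusted p = 0.33), with overlapping ranges. OASL, the OAS-like protein, reached 332 in untreated replicate 2, and its other 19 arrays lay at 139 or less. Its differences were -0.87, -0.64, -1.05 and -0.83 over the 4 days (SE 0.44), and none passed. OAS1 depended on the probe set: the one used gave -0.18 ± 0.15 on day 10, and another -1.37 ± 0.57 (adjusted p = 0.33).

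Among the 12 further effectors the classical antiviral genes did not pass. ISG15, a ubiquitin-like protein that is joined to other proteins, had signals of 253, 1177, 664 and 503 in the untreated arrays, 356, 276, 209.8 and 366 on hCG day 10, 1006, 487, 484 and 287 on day 12, 248, 877, 434 and 273 on day 15 and 545, 652, 269 and 250.2 on day 18. The brightest array in the untreated, day 12 and day 15 groups was in each case the one apart on component 3, and the day 10 arrays were all under 370. The difference on day 10 was -0.90 ± 0.46 (adjusted p = 0.44). MX1, a dynamin-like GTPase that blocks viral replication, averaged 759 ± 315 on hCG day 10 and 879 ± 287 in untreated arrays (-0.24 ± 0.41). On day 18 its arrays were at 1651, 1376, 577 and 645, with replicates 1 and 2 above the other two, and the difference was 0.18 ± 0.41 (adjusted p = 0.91). MX2, its neighbour on the chromosome, was at 376, 242, 138 and 152 on day 18 and 156, 208, 138 and 161 in untreated arrays.

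IFI44 was at 1403, 847, 431 and 946 on hCG day 10, against 1262, 1939, 1576 and 1818 in untreated arrays, and differed by -0.95 ± 0.41 (adjusted p = 0.35). XAF1, a protein that favours cell death, was at 315, 198, 171 and 269.9 on hCG day 10, against 316, 608, 409.6 and 427 in untreated arrays. The highest day 10 array of XAF1 lay just under the lowest untreated one, and the difference was -0.84 ± 0.35 (adjusted p = 0.33). IFIH1, the RNA sensor MDA5, differed by -0.48 ± 0.21 on day 10 and 0.07 ± 0.21 on day 18, and neither passed. IFI35, a leucine-zipper protein induced by interferon, had the lowest p after ISG20 among the members on day 10, though not one of the larger differences (-0.56 ± 0.16, adjusted p = 0.13 by limma). It was at 270.4, 343, 250.2 and 295 on hCG day 10, against 293, 588, 462 and 431 in untreated arrays, where the ranges overlapped through untreated replicate 1. Without that array the difference was -0.73 and passed (adjusted p = 0.021), but it passed in no other fit that left out an array.

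Among the brightest members, 3 of the effectors had no called difference. IFI27, a small mitochondrial protein, ran from 7865 to 13334 over the 20 arrays. Its differences lay between -0.20 and -0.02 in the 4 hCG groups. IFI16, a DNA sensor, ran from 2472 to 3626, with differences of -0.22 to -0.04. On its 2 other probe sets they were larger, -0.58 to -0.32 and -0.42 to -0.21. IFITM1, a membrane protein that bars viral entry, ran from 1747 to 4759, with its top value in untreated replicate 2. Its differences were -0.42 to -0.23, and none passed.

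ISG20 was the clearest exception. It encodes an exonuclease that degrades single-stranded RNA. Its signals were 127, 166, 172 and 99.4 in the untreated arrays, 59.8, 61.5, 90.9 and 95.5 on hCG day 10, 147, 123, 204 and 215 on day 12, 258, 247, 158 and 294 on day 15 and 311, 286, 322 and 319.8 on day 18. All day 10 arrays lay under all untreated arrays, and all day 18 arrays lay above them. The difference on day 10 was -0.75 ± 0.21 (adjusted p = 0.1) and did not pass. It was 0.26 ± 0.21 on day 12 and 0.70 ± 0.21 on day 15 (adjusted p = 0.12), and on day 18 ISG20 rose by 1.08 ± 0.21 (adjusted p = 0.0044). It was the only one of the 46 members called between hCG days 12 and 10, where the background was 0.518%, or 0.102% for higher: day 12 was above day 10 by 1.01 ± 0.21 (adjusted p = 0.029), and day 18 above day 10 by 1.83 ± 0.21 (adjusted p = 2.3e-05). In that last comparison 2 members passed as higher (ISG20 and IRF5) and 1 as lower (IFITM10), with backgrounds of 2.25%, 2.95% and, in either direction, 5.21%. The calls on day 18 held without each of the 20 arrays in turn (adjusted p at most 0.02 against untreated and 0.00017 against day 10). The day 12 step held in 15 of those 20 fits (adjusted p up to 0.12), failing without replicate 1 or 2 of day 10 or replicate 1, 3 or 4 of day 12, and was lost without the 3 arrays apart (1.07, adjusted p = 0.071).

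SAMD9L, a cytosolic protein that restrains cell growth and viral translation, was higher in all hCG groups on average. Its signals were 1135, 2847, 1589 and 814 in the untreated arrays, 1925, 3312, 2811 and 2317 on hCG day 10, 4062, 2157, 2458 and 2985 on day 12, 5036, 3584, 2319 and 4186 on day 15 and 3183, 3772, 3218 and 4982 on day 18. The untreated group spread widely, with replicate 2 above replicates 1, 3 and 4 and inside the range of every hCG group but day 18. SAMD9L rose by 1.34 ± 0.32 on day 15 (adjusted p = 0.041) and by 1.37 ± 0.32 on day 18 (adjusted p = 0.017). The differences of 0.82 ± 0.32 on day 10 and 0.98 ± 0.32 on day 12 did not pass. The day 15 call was marginal. It held in 9 of 20 fits that left out an array, and was lost without untreated replicate 1, 3 or 4, day 15 replicate 1, 2 or 4, or 5 arrays of other groups (adjusted p = 0.05 to 0.14). It was also lost with a constant of 1 (adjusted p = 0.074), the mean over its probe sets (0.73, adjusted p = 0.18), the 8 arrays alone (adjusted p = 0.18) and the replicate block (adjusted p = 0.061). The day 18 call held in 17 and was lost without untreated replicate 1 or 4 or day 18 replicate 4 (adjusted p = 0.057, 0.063 and 0.064). Without the 3 arrays apart the differences were larger, 1.67 on day 15 (adjusted p = 0.017) and 1.70 on day 18 (adjusted p = 0.003). A second SAMD9L probe set gave 1.08 ± 0.36 on day 18 (adjusted p = 0.11), and the remaining one, with signals up to 16.5, gave 0.08.

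**Figure D4:**
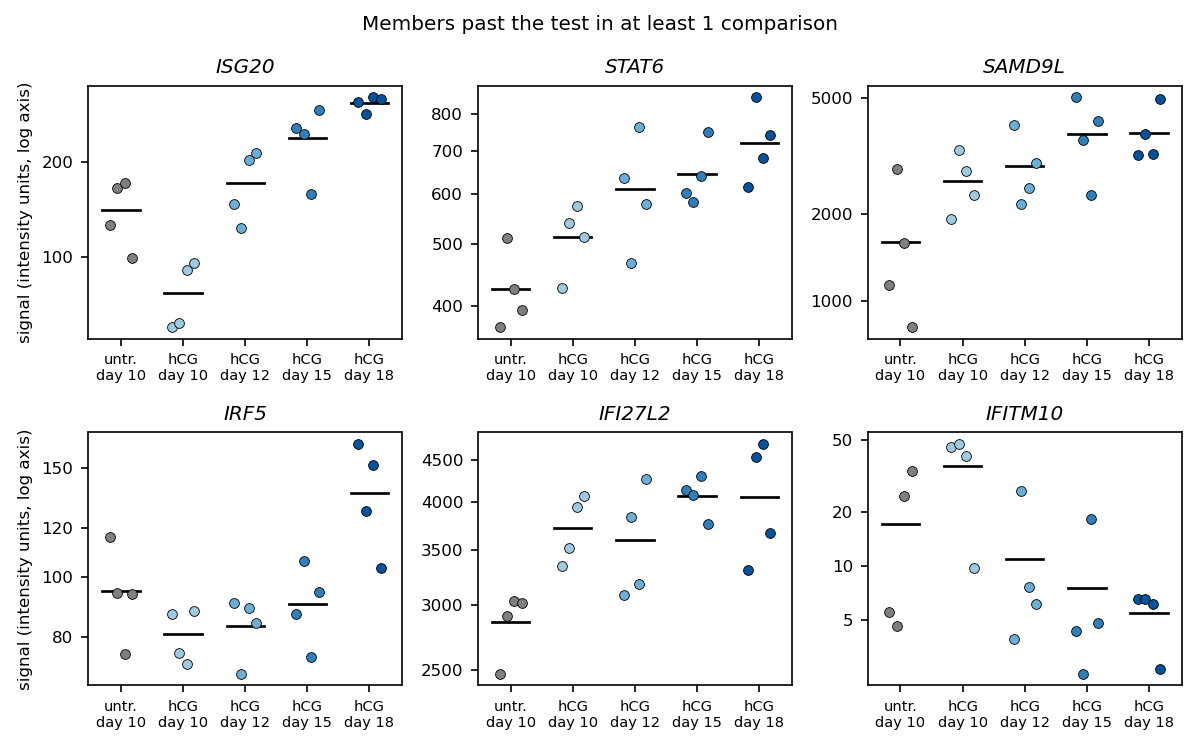
Each panel is a member that passed in at least 1 comparison; points are the 4 arrays of each group on a log axis of signal and lines the mean signal. ISG20 runs from 59.8 to 95.5 on hCG day 10 and from 286 to 322 on day 18, and the day 18 points of IFITM10 are all under 16.

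The PARP members belong to the family of ADP-ribosyltransferases, and PARP9 acts with the ubiquitin ligase DTX3L. All 4 were below 0 in each hCG group, also after median-centring and after quantile normalisation, and none passed. The medians were -0.55, -0.27, -0.48 and -0.37 over the 4 days, and -0.28, -0.28, -0.27 and -0.16 without the 3 arrays apart. PARP9 had signals of 381, 845, 468 and 463 in the untreated arrays, 398, 297, 185 and 239 on hCG day 10, 445, 296, 333 and 334 on day 12, 229.7, 493, 260.4 and 294 on day 15 and 554, 407, 246 and 281 on day 18. Untreated replicate 2 was the highest array at 845, and the others overlapped. Its difference was -0.89 ± 0.29 on day 10 (adjusted p = 0.18) and -0.52 ± 0.29 on day 18. PARP14 reached 1974 in untreated replicate 2 and 618 to 1044 in the other 19 arrays. PARP12 showed the same array at 492, with -0.59 ± 0.26 on day 10. PARP10 differed by -0.35 to -0.19 over the 4 days.

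The guanylate-binding proteins are GTPases that attack intracellular pathogens, induced mainly by interferon gamma. None of the 4 GBP genes passed. GBP1 had the widest range of all members, and its signals were 240.4, 5842, 2655 and 406 in the untreated arrays, 154, 443, 302 and 390.4 on hCG day 10, 2249.9, 963, 588 and 416 on day 12, 577, 1336, 707 and 594 on day 15 and 398, 625, 1103 and 484 on day 18. Untreated replicates 2 and 3 were far above replicates 1 and 4, and all other groups fell within the untreated range except hCG day 10 replicate 1. Its difference on day 10 was -1.85 ± 0.74 (adjusted p = 0.3), and -1.06 without the 3 arrays apart. GBP2 differed by -0.16 ± 0.27 on day 10 on the probe set used and by -1.49 and -1.42 on its others (adjusted p = 0.26 for both). GBP6 and GBP7 were near the floor of the array. IFI30, a reductase that opens disulfide bonds of antigens in lysosomes, was at 2426, 1284, 3133 and 986 on day 18, against 1324, 1738, 562 and 672 in untreated arrays. The ranges overlapped (0.86 ± 0.43, adjusted p = 0.35).

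Of the 7 IRF genes, IRF5, which drives inflammatory genes in macrophages, passed in the F test and in the comparison of hCG days 18 and 10. Its signals were 116, 94.3, 75.2 and 94.1 in the untreated arrays, 87.2, 75.5, 72.6 and 88.4 on hCG day 10, 90.8, 70.0, 89.3 and 84.4 on day 12, 87.1, 106, 74.5 and 94.8 on day 15 and 164, 128, 151 and 103 on day 18. The day 18 arrays all lay above the day 10 arrays and overlapped the untreated ones. Day 18 was above day 10 by 0.64 ± 0.14 (adjusted p = 0.012) and above untreated by 0.45 ± 0.14 (adjusted p = 0.093), which did not pass. The first of these held in 19 of 20 fits without an array, failing without day 18 replicate 1 (adjusted p = 0.051), while the F test call held in 5 of 20 (adjusted p up to 0.19, the highest without the same array). A second IRF5 probe set also passed between days 18 and 10 (0.70 ± 0.17, adjusted p = 0.021). The remaining one did not (0.41 ± 0.30, adjusted p = 0.55), and against untreated it was at -0.09 on day 18.

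Several macrophage markers also rose between hCG days 10 and 18. Of 15 listed, 13 were measured, and 10 of them were over 100 on every array; the lowest single signal of the list was 3.32. Between hCG days 18 and 10, 6 of 13 rose (CSF1R, C1QA, C1QB, C1QC, VSIG4 and CD14), 0 fell, and the median difference was 1.07, against 0.03 for all probe sets. Against untreated, 3 rose on day 18 (CSF1R, C1QC and VSIG4). Without the 3 arrays apart CD14 (adjusted p = 0.072) no longer passed between days 18 and 10, nor C1QC (0.063) and VSIG4 (0.072) against untreated, and after median-centring CD14 (0.089), C1QA (0.059) and C1QB (0.051) did not pass between days 18 and 10. The summed signal of the 13 markers ran from 10863 to 19545 on day 18, 5937 to 8061 on hCG day 10 and 5039 to 11923 in untreated arrays. Within day 18 the sum was 19545, 10863, 16416 and 11529 in replicates 1 to 4, and IRF5 was 164, 128, 151 and 103 in the same arrays. IFI30, also a gene of antigen-presenting cells, was 2426, 1284, 3133 and 986 there. On hCG day 10 the sum was 7964, 6390, 8061 and 5937, and IRF5 was 87.2, 75.5, 72.6 and 88.4. There the array with the highest sum had the lowest IRF5. In the untreated and day 12 groups the array with the highest sum also had the highest IRF5, and on day 15 it did not. The part of these markers in the results for IRF5 and IFI30 was not tested.

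IRF8, a lineage factor of macrophages and dendritic cells, gave opposite answers by probe set. On the probe set used its signals were 249, 443, 104 and 234 in the untreated arrays, 251, 181, 232 and 254 on hCG day 10, 193, 202, 245 and 165 on day 12, 266, 274, 252 and 169 on day 15 and 141, 92.2, 123 and 93.6 on day 18. The day 18 arrays were low, untreated replicate 3 was as low, and the difference was -0.95 ± 0.28 (adjusted p = 0.063). Without that untreated array it was -1.30 and passed (adjusted p = 0.0025), but against untreated it passed in no other fit that left out an array. A second probe set (MmugDNA.8826.1.S1_at) rose on day 18, at 484, 237, 323 and 253 against 233, 201, 155 and 116 in untreated arrays, with no overlap (0.81 ± 0.21, adjusted p = 0.038). It also passed between days 18 and 10 (1.09 ± 0.21, adjusted p = 0.0043). The remaining one (MmuSTS.164.1.S1_at) differed by 0.73 ± 0.30 on day 18 (adjusted p = 0.23). The files do not show which transcripts each probe set reads, so no direction is given for IRF8.

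**Figure D5:**
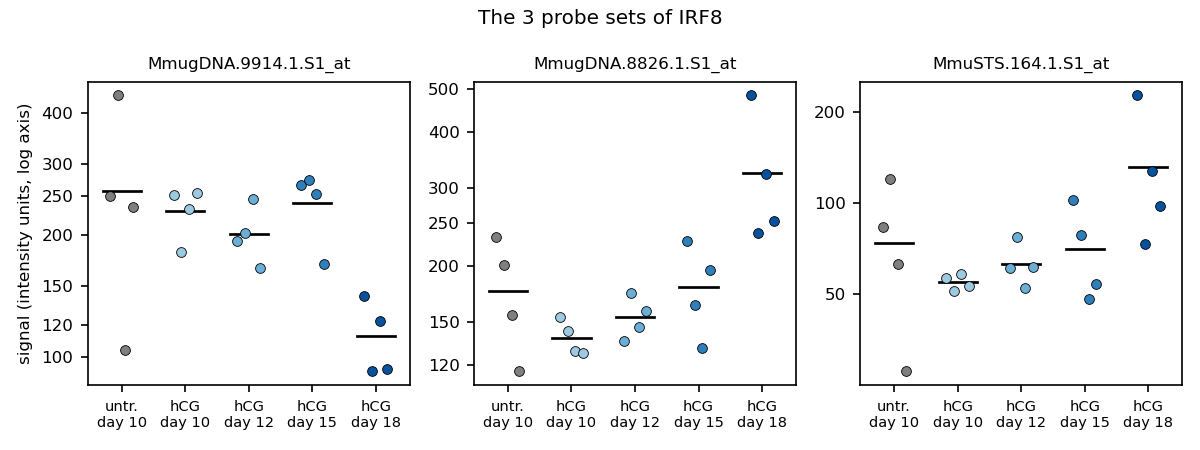
The 3 probe sets annotated to IRF8, with 4 arrays per group as points on a log axis of signal and the mean signal as a line. On day 18 the first runs from 92.2 to 141, below most untreated arrays, and the second from 237 to 484, above all of them.

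The other IRF genes did not pass. IRF1, an activator induced by interferon gamma, was at 140.1, 139, 139.7 and 197 on hCG day 10, against 154, 487, 450.4 and 129 in untreated arrays, where replicates 2 and 3 were high (-0.71 ± 0.31, adjusted p = 0.36). IRF2, its antagonist, was at 94.8, 59.2, 61.0 and 80.6 on day 12, all under the untreated values of 116, 118, 114 and 98.8 (-0.52 ± 0.16, adjusted p = 0.23). IRF3, which switches on interferon beta after a virus is sensed, lay above 0 in all hCG groups, by 0.48 ± 0.17 on day 10 and 0.41 ± 0.17 on day 18 (adjusted p = 0.24 for both). IRF7, the amplifier of interferon alpha, had 278 and 191 in untreated replicates 2 and 3 and 66.0 to 158 in the 18 other arrays, and its differences were -0.53 to -0.28. IRF4, a factor of lymphocytes, was under 16 on 12 arrays.

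STAT6, which carries the signals of interleukins 4 and 13, had a higher mean signal at each later collection. Its signals were 371, 512, 426 and 395 in the untreated arrays, 427, 539, 573 and 513 on hCG day 10, 634, 468, 762 and 577 on day 12, 602, 582, 639 and 747 on day 15 and 615, 848, 681 and 740.4 on day 18. The day 15 and day 18 arrays all lay above the untreated ones, while days 10 and 12 overlapped them. STAT6 rose by 0.74 ± 0.15 on day 18 (adjusted p = 0.0076). The differences of 0.26 ± 0.15 on day 10, 0.49 ± 0.15 on day 12 and 0.58 ± 0.15 on day 15 (adjusted p = 0.071) did not pass. No step between collection days passed for it. The day 18 call held in 20 of 20 fits without an array (adjusted p at most 0.033). Its F test call held in 14 and was lost without untreated replicate 1, 3 or 4 or day 18 replicate 2, 3 or 4 (adjusted p = 0.055 to 0.092). A second STAT6 probe set passed on day 18 as well (0.67 ± 0.17, adjusted p = 0.029). The remaining one gave 0.44 ± 0.21 (adjusted p = 0.32).

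STAT5B, which serves prolactin and growth hormone receptors among others, differed by 0.56 ± 0.17 on day 18 (adjusted p = 0.085). Its arrays were at 303, 360.4, 313 and 270.3 on day 18 and at 213, 169, 179 and 273 in untreated tissue, where replicate 4 overlapped day 18. Without that array it passed (0.69, adjusted p = 0.039), but in no other fit that left out an array. Another STAT5B probe set peaked on day 10 instead, with 0.55 ± 0.13 (adjusted p = 0.044) and -0.06 on day 18, so the time course of STAT5B is not settled here. STAT5A, its neighbour, differed by 0.44 ± 0.24 on day 18 (adjusted p = 0.4). STAT2, the partner needed for the type I interferon response, was at 46.8, 30.1, 25.5 and 59.1 on hCG day 10, against 45.2, 65.7, 68.4 and 92.9 in untreated arrays (-0.59 ± 0.27, adjusted p = 0.39). STAT3, which answers interleukin 6 and related cytokines, differed by -0.39 to 0.04.

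Of the 5 genes that entered by name, IFI27L2 passed on day 18. This relative of IFI27 was at 3348, 3519.8, 3953 and 4076 on hCG day 10, 3084, 3844, 3182 and 4274 on day 12, 4137, 4087, 4307 and 3761 on day 15 and 3304, 4546, 4712 and 3671 on day 18. Each of these values lay above the untreated ones of 2474, 2905, 3035 and 3016. The differences were 0.38, 0.32, 0.51 and 0.49 (SE 0.14), with an adjusted p of 0.047 on day 18 and 0.075 on day 15. The day 18 call was marginal. It held in 4 of 20 fits without an array, and the adjusted p was highest, at 0.15, 0.14 and 0.14, without day 18 replicate 3, day 18 replicate 2 or untreated replicate 1. IFI27 and IFI27L1, the nearest genes of the set on the chromosome in the RefSeq annotation T2T-MMU8v2.0, did not pass with it: IFI27L1 differed by 0.49, -0.29, 0.38 and -0.03 (SE 0.44).

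IFITM10 was too dim to measure well: it was under 16 on 13 of 20 arrays. It was at 6.56, 6.56, 6.15 and 2.67 on day 18, against 45.9, 47.7, 41.0 and 9.79 on hCG day 10, and passed as lower on day 18 (-1.20 ± 0.32, adjusted p = 0.035). Signals under 16 are close to the added constant, so the size is not resolved: with a constant of 1 it was -2.36 (adjusted p = 0.07). The call was also lost without replicate 1, 2 or 3 of day 10 or any array of day 18 (adjusted p = 0.061 to 0.1). ISG20L2, an exonuclease of ribosome assembly, lay above 0 on day 10 (0.37 ± 0.13) and near 0 on day 18 (0.01 ± 0.13), unlike ISG20. IRF2BP1, a corepressor that binds IRF2, differed by 0.22, 0.31, -0.08 and 0.04 (SE 0.17).

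In the steps from hCG day 12 to 15 and from day 15 to 18, 0 of 46 members passed, and limma called 0% of all probe sets there. At an unadjusted p under 0.05, 2 members were higher on day 15 than on day 12 (ISG20 and IRF4, background 2.36%) and 1 lower (IRF2BP1, 2.77%). On day 18, 1 was higher than on day 15 (IRF5, 4.12%) and 1 lower (IRF8, 2.88%). The other IRF8 probe sets were higher in that step (0.77 and 0.70), so no direction is given for IRF8 here either.

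Members with several probe sets allowed a check within the arrays. The 23 such genes had 44 further probe sets. Of these, 41, 36, 36 and 29 had the sign of the gene's main probe set on days 10, 12, 15 and 18. Below 0 lay 36, 37, 35 and 32, against 58.3%, 60.4%, 59.9% and 55.2% of all probe sets. A few genes weigh heavily here, such as GBP1 and IFIT2 with 6 probe sets each. The counts were not recomputed without the 3 arrays apart or after median-centring. They are probe sets of the same RNA samples and no replicates. Several members are also chromosomal neighbours in the RefSeq annotation: GBP1 with GBP2, IFIT1B with IFIT1 and IFIT3, IFIT2 with IFIT3, MX1 with MX2, OAS1 with OAS3, and STAT5A with STAT3 and STAT5B.

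The rest of the pathway was read from 6 further gene lists. Of 22 interferon genes, 5 were measured (IFNA21, IFNB1, IFNG, IFNK and IFNL1), and their summed signal on an array was 27.9 to 61.4. Of the 5, 2 were under 16 on every array and 0 were over 100 on every array. In any comparison 0 passed, but signals this near the floor could hardly show a difference. Of 9 genes for receptors and their kinases, 5 were measured and 0 passed. Of 17 genes for nucleic acid sensing, 14 were measured, and AIM2, a DNA sensor of the inflammasome, was lower on day 18 than on hCG day 10 (-0.92 ± 0.18, adjusted p = 0.0038). Of 11 brakes on interferon signalling, 8 were measured. PTPN6, a phosphatase of blood cells, rose on day 18, at 465, 379, 412 and 289.8 against 185, 189.8, 134 and 112 in untreated arrays (1.24 ± 0.31, adjusted p = 0.028).

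Of 38 other interferon-induced genes, 28 were measured. On day 10, 22 of 28 were below 0 (78.6%, against 58.3% of all probe sets) with a median of -0.22, and 1 passed, as higher. After median-centring 17 were below 0 with a median of -0.10, against 39.5% of all probe sets below 0. Without the 3 arrays apart 19 were, against 59.7% of all probe sets. The gene that passed was DDX60, a helicase that aids RNA sensing. It was at 2536, 2328, 2414 and 3098 on hCG day 10 against 1051, 1188, 892 and 895 in untreated arrays. The groups were well apart (1.35 ± 0.19, adjusted p = 0.0011). DDX60 then was lower on day 12 than on day 10 (-0.84 ± 0.19, adjusted p = 0.048, but 0.12 without the 3 arrays apart and 0.15 after median-centring) and on day 18 than on day 10 (-0.83 ± 0.19, adjusted p = 0.011). BST2, or tetherin, which holds budding virus at the membrane, rose on day 18 (0.50 ± 0.13, adjusted p = 0.033), though not after median-centring (adjusted p = 0.062). Between days 18 and 10, BST2, SP110 and TNFSF10 rose (0.55, 0.58 and 0.46), and of these BST2 and TNFSF10 did not pass after median-centring (adjusted p = 0.085 and 0.11).

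Of 18 interferon gamma induced genes, 15 were measured, and 14, 11, 14 and 9 were below 0 on days 10, 12, 15 and 18, against 58.3%, 60.4%, 59.9% and 55.2% of all probe sets. These counts rested on the 3 arrays apart: without them 11, 8, 7 and 6 were below 0, and the median on day 15 was 0.01, against -0.26 with them. After median-centring 13, 7, 12 and 9 were below 0, against 39.5%, 36.4%, 40.4% and 46.8% of all probe sets. TAP1, a peptide transporter for antigen presentation, fell on day 18. It was at 740.0, 765, 625 and 592 on day 18 and 1108, 4188, 2375 and 946 in untreated arrays, where replicates 2 and 3 were high (-1.39 ± 0.37, adjusted p = 0.041). Without the 3 arrays apart, untreated replicate 2 among them, it did not pass (-0.99, adjusted p = 0.15), nor after median-centring (adjusted p = 0.053).

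Few markers of other immune cells passed. Of 10 measured T and NK cell genes, GZMA rose on day 18 (0.91 ± 0.19, adjusted p = 0.01). Of 5 for B and plasma cells, JCHAIN rose (1.17 ± 0.30, adjusted p = 0.032, but 0.11 without the 3 arrays apart), and of 6 for neutrophils S100A8 was higher on day 18 than on day 10 (2.75 ± 0.74, adjusted p = 0.036). Of these 5 and 6 genes, 0 were over 100 on every array. The summed neutrophil signal was 602, 1756.5, 159 and 299 in day 18 replicates 1 to 4, and 112 to 192 on hCG day 10. Replicate 2 was far the highest, and replicate 3 lay within the day 10 range. The 2 measured genes for plasmacytoid dendritic cells, the 2 for red cells, the 11 endothelial, the 4 for smooth muscle and pericytes and the 9 stromal genes gave 0 calls in the comparisons with untreated tissue and between days 18 and 10. Among the 6 luteal markers, HSD3B2, a steroid dehydrogenase, fell on days 15 and 18 (by 0.97 and 1.83), and FDXR, which passes electrons to steroidogenic enzymes, fell on day 18 (by 0.75). Without the 3 arrays apart the day 15 call of HSD3B2 (adjusted p = 0.15) and that of FDXR (adjusted p = 0.11, and 0.083 after median-centring) were lost. The part of these cell markers in the members' results was not tested.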

How the data were processed

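Messenger RNA of 20 corpora lutea was measured on Affymetrix rhesus arrays, from RNA extracted with TRIzol and labelled with biotin. The deposited values are 1 signal intensity per probe set and array, made by the authors with GCOS, per the submitters' processing notes; its version and settings are not given in the sources used here. Every array has a 2% trimmed mean close to 200, tested on the table. Raw images and detection calls were not used, and the number of arrays limits the precision.

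Of 52865 probe sets, 158 controls were left out and 52707 tested, as log2(signal + 16), without further scaling or filter. Gene symbols came from the platform annotation, and 45 of 46 members matched a RefSeq gene ID (IFI44 keeps the file's name). The 3 probe sets that name a member among several genes were not used. With limma (version 3.58.1, R version 4.3.3) a single linear model of the 5 group means took in all 20 arrays, with eBayes, and p-values were Benjamini-Hochberg adjusted over all probe sets within each of 8 comparisons and the F test. SD is over 4 arrays. Named were members past a test, the 6 with the largest difference per comparison, the 8 brightest, the 8 with the widest range, a list of classical members and up to 4 called genes of each other list. The members and lists were chosen with earlier results of these data known. Alternatives were quantile normalisation, median-centring, constants of 1 and 64, the upper 50% of probe sets, averaging a gene's probe sets, a replicate block, the 8 arrays of a comparison alone, and leaving out 1 array or the 3 apart. The replicate numbers were checked for pairing: over 40 pairs the correlations of deviations ran from -0.28 to 0.36 (median 0.03), so they were not treated as pairs. The procedure was tested on simulated data. Figures used matplotlib (version 3.10.9).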

Additional observations from a re-analysis of the deposited data

Results flagged for a closer look

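Of 230 sets of 4 arrays (46 members in 5 groups), 15 held 1 array whose gap to the nearest of the others exceeded Dixon's 95% limit for its share of the range, and chance alone gives about 5%. High arrays were IFITM1 at 4759 in untreated replicate 2 (others 2319 to 2581), PARP12 at 492 in the same array (250.4 to 279) and GBP7 at 2.96 there (0.865 to 1.14), near the floor of the array. IFIT3 was at 5193 in hCG day 12 replicate 1 (2618 to 2937), IFI35 at 422 in hCG day 15 replicate 2 (349 to 354) and STAT5A at 56.6 in hCG day 12 replicate 2 (21.5 to 24.2). On hCG day 10, GBP7 was at 7.38 in replicate 2 (0.833 to 1.24), IRF1 at 197 in replicate 4 (139 to 140.1) and STAT3 at 351 in replicate 1 (247 to 262). IRF1 was at 289.7 in hCG day 18 replicate 1 (193 to 201).

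Low arrays were GBP2 at 175 in hCG day 15 replicate 1 (others 311 to 344), IRF2BP1 at 84.5 in hCG day 15 replicate 2 (126 to 128), ISG20L2 at 307 in hCG day 18 replicate 4 (405 to 426), and IFITM10 at 9.79 in hCG day 10 replicate 4 (41.0 to 47.7) and at 2.67 in hCG day 18 replicate 4 (6.15 to 6.56).

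Between hCG groups of different collection days, which differ in luteal day, days of hCG and dose together, limma's test found a difference for ISG20 (day 12 minus day 10, 1.01, and day 18 minus day 10, 1.83), IRF5 (day 18 minus day 10, 0.64) and IFITM10 (day 18 minus day 10, -1.20).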

How the results depend on the processing

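Of 80 recomputed counts of called members outside the fits that left out 1 array, 67 stayed within 1.5 times the reported count. Counts of 0 that stayed 0 are among the 67. They include steps between collection days where 0% of all probe sets were called, so this share does not show the calls to be stable. The 72 recomputed medians of the members' differences each moved by less than the pooled SD of the array means, whose group SDs were 0.10 to 0.26. Medians of that size could reach 0 within this limit, so it does not show them to be stable. On day 12 against untreated the median was -0.16, and -0.01 after median-centring. The F test called 1 member with a constant of 1. On day 15 the count of 1 (SAMD9L) became 2 with median-centring, 3 with a constant of 64 or the upper 50% of probe sets, and 0 with a constant of 1, the mean over probe sets, the 8 arrays alone, or the replicate block; the replicate numbers do not pair the samples, and the block gave 0 where the fit without it gave 1. On day 18 the count of 4 became 2 with the 8 arrays alone. Between hCG days 12 and 10 the count of 1 became 0 with median-centring, a constant of 1, without the 3 arrays apart and with the 8 arrays alone. Leaving out 1 array gave 1 to 4 members by the F test. Against untreated it gave 0 to 1 on day 10, 0 to 0 on day 12, 0 to 2 on day 15 and 2 to 4 on day 18. It gave 0 to 1 between days 12 and 10, 0 to 0 between days 15 and 12 and between days 18 and 15, and 1 to 4 between days 18 and 10. No called value changed sign in these alternatives. The recounts of members lower at an unadjusted p, and those of the other lists' genes and of the 41 members, were chosen after seeing the data. Fewer arrays leave fewer degrees of freedom in the fits of 8; the cause of the other changes was not tested. Signals under 16 limit IFITM10, GBP6, GBP7 and IRF4, and low signals limit the interferon genes of the other lists.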
